A study of Mus musculus with 6 samples.

Results

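The genes that carry glucose to pyruvate, make and move lactate, and sense oxygen were followed in RNA-seq of splenic CD8+ T cells of C57BL/6 mice, all of the wild-type genotype. The 38 genes were taken by name from a list: 3 glucose transporters, 3 hexokinases, 7 genes of upper glycolysis, 3 enzymes that set fructose 2,6-bisphosphate, 6 genes of lower glycolysis, 4 of lactate handling, 3 pyruvate dehydrogenase kinases, 5 of oxygen sensing and 4 hypoxia targets. All 38 were found among the 26181 genes of the deposited table, and all averaged 10 normalised counts or more, the minimum for testing. Mice were 6 weeks old at the start and received either ND, the comparison diet, or CDAHFD, a choline-deficient, amino acid-defined, high-fat diet that induces fatty liver disease with inflammation, for 7 weeks. Each diet had 3 libraries. No other agent is named for either group. The sort or bead method, its purity, and whether the 3 libraries of a diet came from separate mice are not given in the sources used here, so p-values here reflect only how far these libraries spread, and part of that may be technical.

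Glycolysis splits glucose into pyruvate, which is either reduced to lactate and exported or oxidised in mitochondria. Resting T cells rely mostly on mitochondria, whereas activated T cells raise glucose uptake, glycolysis and lactate export. When oxygen is scarce the alpha subunits of the hypoxia-inducible factors (HIF) escape hydroxylation and degradation, and switch on glucose transporters, glycolytic enzymes, lactate export and the kinases that hold back pyruvate oxidation.

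Libraries held between 25314988 and 28067393 reads assigned to genes, and the first principal component, with 79.4% of the variance, separated the diets. The CD8 T cell marker list was abundant as a sum in every library. Apart from Cd8a and Cd8b1 it holds genes that other T cells share, such as Cd3e and Lck. RNA of other cells was also present, and differed between diets. The 14 CD8 T cell markers summed to 172898 to 177444 normalised counts in ND and 138472 to 143170 in CDAHFD, with 13 of 14 lower. The 14 macrophage markers summed to 18093 to 20159 in ND and 161567 to 177096 in CDAHFD, and 14 of 14 were higher. Neutrophil markers (8 of 10 higher) went from 3656 to 3722 in ND to 10472 to 11667 in CDAHFD, erythroid markers (9 of 9 higher) from 946 to 995 to 9264 to 9545, and plasma cell markers (5 of 6 tested higher) from 2598 to 2728 to 35457 to 36642. The 10 B cell markers (9 lower, 1 higher) went the other way, from 26691 to 27772 in ND to 21010 to 22079.5 in CDAHFD. Heat shock genes, which respond to sample handling among other stresses, summed to 62458 to 64940.4 in ND and 100795 to 109289 in CDAHFD, with 7 of 8 tested higher. None of these markers was at 0 in every library. In such bulk samples fewer cells of a type and less RNA per cell cannot be told apart. The markers' part in the results below was not tested.

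Of the 38 genes, 20 differed between diets in limma at an adjusted p under 0.05, beside 47.1% of the 15819 genes tested. Of these, 12 were higher in CDAHFD (31.6% of the 38, against 24.6% of all genes tested) and 8 were lower (21.1%, against 22.5%). These shares lie near the background, so the counts are no result particular to the pathway. The set did not move one way: its median log2 fold change was 0.05, and that of all genes was -0.01. The median absolute change was 0.14, smaller than the 0.22 of all genes. Fitted changes of at least 1.5-fold, taken from the limma log2 values, were few. Hk3, Slc16a3 and P4ha1 rose by that much (13.6% of all genes did), and Pfkm, Aldoc and Pdk2 fell by that much (5.03% of all genes did). Slc2a6 and Pfkfb4 lay just short of it, both at 0.58 on the log2 scale. Pdk2 lay only just past it, at -0.59, and fell short of it without ND replicate 1, at -0.53. Of the genes past 1.5-fold, Hk3 and Slc16a3 were at least 2-fold higher (9.43% of all genes were). None of the 8 lower genes was 2-fold lower in limma (1.77% of all genes were), with Aldoc just short of it at -0.98 on the log2 scale. Differences given below as "rose by" or "fell by" are on the scale of log2(normalised count + 1), with the standard error and the limma p adjusted over all genes tested. The 3 libraries of CDAHFD lay wholly above those of ND for 15 of the 38 genes (27.8% of all genes) and wholly below for 9 (26.5% of all genes), which makes 24 in either direction (54.3% of all genes). With 3 libraries against 3, an exact permutation test of 1 gene cannot go below p = 0.1.

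**Figure D1:**
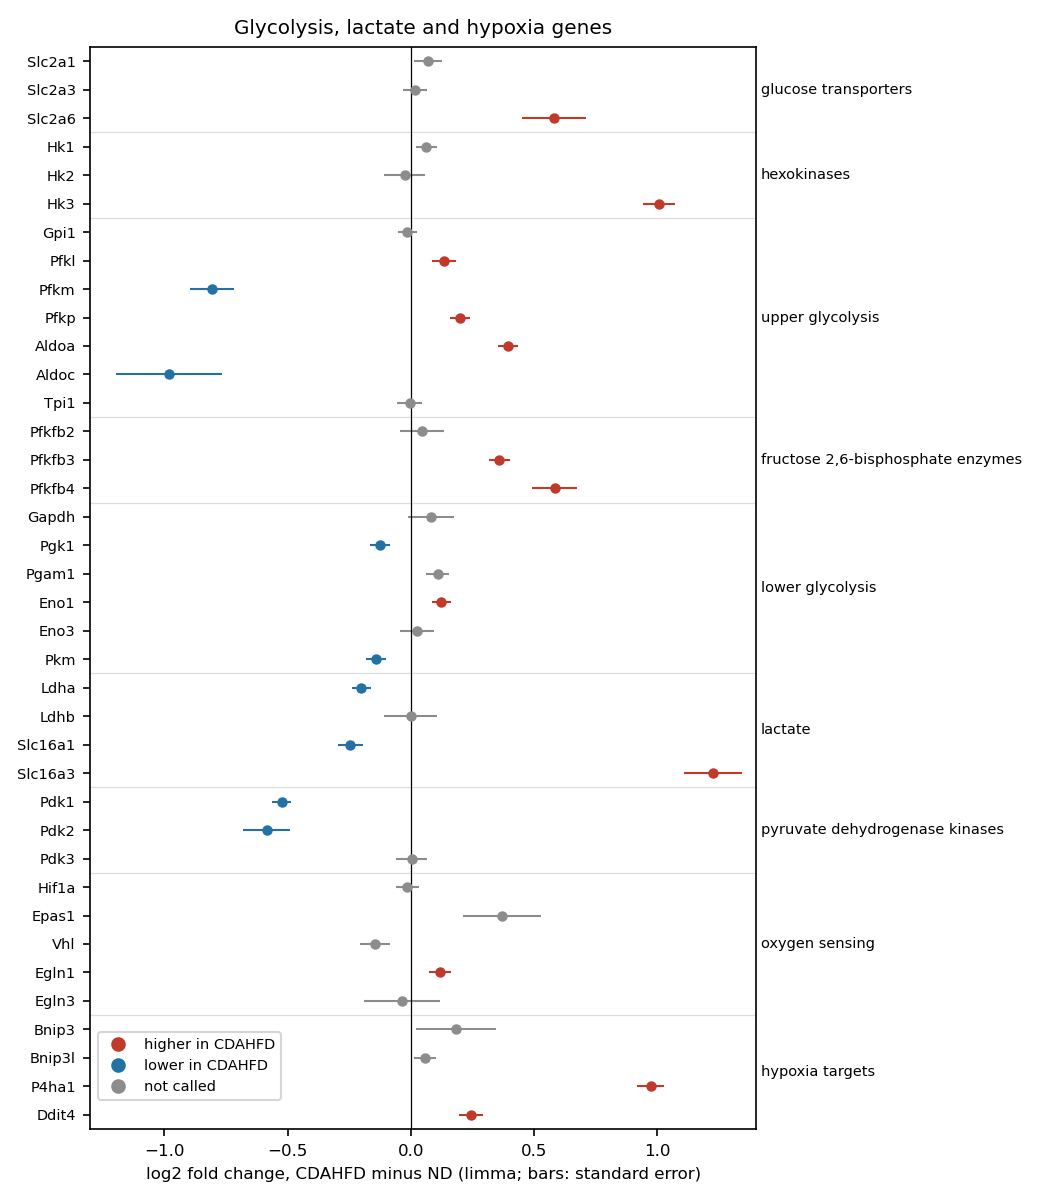
Log2 fold change of each of the 38 genes, CDAHFD minus ND, in limma (points) with its standard error (bars), grouped by role; red and blue points passed an adjusted p of 0.05. The points furthest to the right are Slc16a3 at 1.23, Hk3 at 1.01 and P4ha1 at 0.97, and those furthest to the left are Aldoc at -0.98 and Pfkm at -0.81.

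The promoters of 5 of these genes are shown because HIF binds the core letters ACGTG, and because they belong to the pair of lactate transporters that moved in opposite directions, to Ldha, and to the hexokinase and the collagen hydroxylase that rose. They were chosen after their values were seen. Each stretch is the 200 bases before a start of the gene in RefSeq on GRCm38.p6, read 5′ to 3′ on the gene's strand. ACGTG or its reverse complement CACGT is in capitals. For Slc16a3, P4ha1 and Hk3 the bases just after that start were found in an annotated transcript of the gene. For Ldha and Slc16a1 they were not, so the distances given for these are less certain. Ldha had a further window, at chr7:46846832-46847131, which held 0 ACGTG and is not shown. The stretch of Slc16a3 lies at chr11:120948867-120949066 on the plus strand, Slc16a1 at chr3:104638464-104638663 on the plus strand, Ldha at chr7:46845604-46845803 on the plus strand, P4ha1 at chr10:59323096-59323295 on the plus strand and Hk3 at chr13:55021386-55021585 on the minus strand.
Slc16a3: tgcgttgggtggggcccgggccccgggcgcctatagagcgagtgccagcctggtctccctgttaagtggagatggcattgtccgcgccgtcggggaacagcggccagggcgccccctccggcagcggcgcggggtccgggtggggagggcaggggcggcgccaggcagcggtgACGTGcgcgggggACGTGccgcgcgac
Slc16a1: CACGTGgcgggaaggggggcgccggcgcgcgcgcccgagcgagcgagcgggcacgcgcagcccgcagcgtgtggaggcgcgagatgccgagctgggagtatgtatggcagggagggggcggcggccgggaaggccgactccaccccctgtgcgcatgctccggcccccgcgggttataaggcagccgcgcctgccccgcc
Ldha: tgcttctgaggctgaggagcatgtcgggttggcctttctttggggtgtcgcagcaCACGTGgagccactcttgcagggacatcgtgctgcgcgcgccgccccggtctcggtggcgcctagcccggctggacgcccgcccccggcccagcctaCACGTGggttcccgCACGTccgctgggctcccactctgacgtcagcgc
P4ha1: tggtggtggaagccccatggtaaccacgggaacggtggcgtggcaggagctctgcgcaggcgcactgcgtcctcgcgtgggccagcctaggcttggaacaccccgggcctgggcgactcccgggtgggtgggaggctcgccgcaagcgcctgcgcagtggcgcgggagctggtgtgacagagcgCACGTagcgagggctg
Hk3: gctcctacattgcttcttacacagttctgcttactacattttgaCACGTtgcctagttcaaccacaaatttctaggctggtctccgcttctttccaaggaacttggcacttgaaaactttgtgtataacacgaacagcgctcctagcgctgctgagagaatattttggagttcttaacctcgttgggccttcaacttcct

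In Slc16a3 the motif begins 27 and 14 bases before the start, and in P4ha1 it begins 16 bases before. Ldha holds the palindrome CACGTG, which reads as the motif on both strands, beginning 145 and 48 bases before the start, and a single CACGT beginning 34 bases before. Slc16a1 holds CACGTG at the far end of the stretch, 200 bases before the start, and Hk3 holds CACGT 156 bases before. The CACGTG form is also an E-box, which MYC and other factors can bind. Over windows from 250 bases before to 50 after each start, 35 of the 38 genes had an entry, in 51 windows. ACGTG on either strand was in 28 of those 51 windows (54.9%), against 6447 of all 32851 windows (19.6%) and 29.3% of the windows with at least 24 CpG, the median of the 51. Of the genes with a window, 7 of the 12 that rose and 7 of the 8 that fell held ACGTG. So did 10 of the 15 not called. The background by gene was 21.8% of all genes with a window, and 30.4% of those with a window of at least 24 CpG. A gene with more windows has more chances to hold the motif. By window, the motif was in 9 of 17 for the genes that rose and 8 of 16 for those that fell. For those not called it was in 11 of 18, so the share by window was not highest in the genes that fell. Genes with the motif thus rose, fell and went uncalled. The other core form, GCGTG, was in 56.9% of the 51 windows, 32.4% of all windows and 65.8% of the windows with at least 24 CpG. Matches of letters are a description and not evidence of binding.

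Among the glucose transporters the pair that held most of the message was not called, while the third, minor one rose. Slc2a1, the widely expressed glucose transporter GLUT1, had 1069.6, 1069 and 973 normalised counts in the ND libraries and 1077, 1096 and 1086 in the CDAHFD libraries. The diets did not overlap, but the log2 fold change was 0.07 (SE 0.06, adjusted p = 0.346), which was not called. Slc2a3, the high-affinity GLUT3, had 1938, 1823 and 1934 in ND and 1991, 1836 and 1935 in CDAHFD, with a log2 fold change of 0.02 (SE 0.05, adjusted p = 0.809). Slc2a6, the intracellular GLUT6, had 127, 145 and 118 in ND and 165, 210.2 and 211 in CDAHFD. All 3 CDAHFD libraries exceeded all 3 ND libraries, and the log2 fold change was 0.58 (SE 0.13, adjusted p = 5.12e-04). Per kilobase of exon, Slc2a1 made up 49.4% ± 1.51 of the family in ND and 48.7% ± 0.671 in CDAHFD, Slc2a3 made up 43.8% ± 2.06 and 41.7% ± 1.62, and Slc2a6 went from 6.76% ± 0.643 of the family to 9.57% ± 1.27 (SD, n = 3).

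Hexokinases trap glucose in the cell as glucose 6-phosphate. Hk3 (ENSMUSG00000025877, chr13:55005985-55021385 on mm10), the form typical of myeloid cells, was 2.01-fold higher in CDAHFD. It had 608, 732 and 647 normalised counts in ND and 1276, 1297 and 1411 in CDAHFD, 662 ± 63.3 against 1328 ± 72.7 (SD, n = 3). Every CDAHFD library was far above every ND library, and the log2 fold change was 1.01 (SE 0.07, adjusted p = 4.28e-13). Hk1, the constitutive form, had 4352, 4089 and 4053 in ND and 4296, 4457 and 4298 in CDAHFD. The ranges overlapped, and its log2 fold change was 0.06 (SE 0.04, adjusted p = 0.224). Hk2, the form that activated T cells induce and a HIF target, had 351, 371 and 366 in ND and 368, 345 and 357 in CDAHFD. Its log2 fold change was -0.03 (SE 0.08, adjusted p = 0.835), and its ranges overlapped. Per kilobase of exon, Hk1 made up 69.5%, 64.7% and 66.7% of the family in ND and 55.2%, 56.02% and 53.2% in CDAHFD. Hk3 made up 22.5%, 26.8% and 24.7% in ND and 38.02%, 37.8% and 40.5% in CDAHFD, and Hk2 moved from 8.34% ± 0.300 to 6.42% ± 0.298. Hk1 led in all 6 libraries, so the shift was in proportion and not in which form led. Macrophage and neutrophil marker sums, given above, moved the same way as Hk3, and their part in its rise was not tested.

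Phosphofructokinase commits sugar to glycolysis and is built from 3 kinds of subunit, and these moved in opposite directions. Pfkm (ENSMUSG00000033065, chr15:98092589-98132451), the muscle-type subunit, had 384, 383 and 387 normalised counts in ND and 217, 227 and 214 in CDAHFD. The 3 libraries of each diet were tight and far apart, 384 ± 2.03 against 219 ± 7.05 (SD, n = 3), and Pfkm fell by 0.81 on the log2 scale (SE 0.09, adjusted p = 1.84e-08). Pfkp, the platelet-type subunit, had 5788, 5309 and 5625 in ND and 6353, 6384 and 6453 in CDAHFD. Those values did not overlap, and Pfkp rose by 0.20 (SE 0.04, adjusted p = 1.65e-04). Pfkl, the liver-type subunit, had 1752, 1676 and 1595 in ND and 1826, 1853 and 1829 in CDAHFD, without overlap, and a log2 fold change of 0.13 (SE 0.05, adjusted p = 0.0245). The call on Pfkl was lost without ND replicate 2 or 3 or without CDAHFD replicate 2 or 3, where the adjusted p ran from 0.0536 to 0.14 (0.0141 to 0.14 over all alternatives), and the log2 fold change then lay between 0.10 and 0.14. It was also lost with scaling to equal totals (adjusted p = 0.0515) and in limma without trend and robust estimation (adjusted p = 0.0881). Pfkm made up 14.2%, 15.04% and 14.9% of the family's counts per kilobase in ND and 7.99%, 8.28% and 7.81% in CDAHFD. Pfkp made up 53.4%, 52.00% and 54.2% in ND and 58.3%, 57.9% and 58.7% in CDAHFD, and led in all 6 libraries. Pfkl went from 32.1% ± 1.10 to 33.6% ± 0.171. The log2 ratio of Pfkm to Pfkp fell by 1.01 (SE 0.05).

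The aldolases, which split fructose 1,6-bisphosphate, also moved apart. Aldoa, the main form outside liver and brain, had 7290.1, 6948 and 6812 normalised counts in ND and 9743, 9126 and 8811 in CDAHFD. It did not overlap between diets and was 1.31-fold higher, a log2 fold change of 0.39 (SE 0.04, adjusted p = 6.84e-09). Aldoc, the brain-type form and a known HIF target, had 72.97, 91.8 and 58.5 in ND and 39.1, 29.4 and 42.6 in CDAHFD. At these low levels its libraries still did not overlap, and it fell by 0.98 (SE 0.22, adjusted p = 4.06e-04). Aldoc was 0.937% ± 0.208 of the family in ND and 0.358% ± 0.0716 in CDAHFD, so aldolase message was nearly all Aldoa in both diets. Gpi1, which converts glucose 6-phosphate to fructose 6-phosphate, ranged from 9432 to 10099 in ND and from 9420.4 to 9755 in CDAHFD. Tpi1, which interconverts the 3-carbon sugars made by aldolase, ranged from 1443 to 1593 and from 1476 to 1546. Both overlapped between diets and neither was called, with adjusted p of 0.788 and 0.945.

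Fructose 2,6-bisphosphate is the strongest activator of phosphofructokinase, and 2 of the 3 measured genes that make or remove it rose. Pfkfb3, the form with high kinase activity and a HIF target, had 2287, 2259 and 2343 normalised counts in ND and 2985, 2907 and 2938 in CDAHFD. The diets did not overlap and the spread was small, 2296 ± 42.6 against 2943 ± 38.9 (SD, n = 3), with a log2 fold change of 0.36 (SE 0.04, adjusted p = 5.49e-08). Pfkfb4, also a HIF target, had 261, 306 and 257 in ND and 399, 421 and 413 in CDAHFD. Each CDAHFD library exceeded the highest ND library, and Pfkfb4 rose by 0.58 (SE 0.09, adjusted p = 4.39e-06). Pfkfb2, the heart-type form, had 341, 344 and 359 in ND and 395, 359.9 and 325 in CDAHFD, which overlapped. Its log2 fold change was 0.05 (SE 0.09, adjusted p = 0.712). Pfkfb3 kept nearly the same share of the family, 74.4% ± 1.20 in ND and 74.4% ± 0.562 in CDAHFD. Pfkfb4 went from 13.8% ± 1.36 to 16.1% ± 0.639 and Pfkfb2 from 11.8% ± 0.227 to 9.48% ± 0.807.

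Lower glycolysis showed small differences. Of its 6 genes, Eno1 rose, Pgk1 and Pkm fell, and Gapdh, Pgam1 and Eno3 were not called, with a median log2 fold change of 0.05. Eno1, the main enolase, had 13092, 12906 and 12579.9 normalised counts in ND and 14334, 13805 and 13887 in CDAHFD, without overlap and with a log2 fold change of 0.12 (SE 0.04, adjusted p = 0.0078). Eno3, the muscle-type enolase, had 621, 625 and 596 in ND and 659.7, 577 and 642 in CDAHFD, with a log2 fold change of 0.03 (SE 0.07, adjusted p = 0.798). These overlapped. Eno1 made up 87.1% ± 0.143 of the pair per kilobase in ND and 87.9% ± 0.602 in CDAHFD. A further enolase copy, Eno1b, is close in sequence to Eno1 and stood at 274 to 288 in ND and 302 to 343 in CDAHFD, so the split of reads between these copies is uncertain. Pgk1, the first ATP-making step, ranged from 4742 to 4960.1 in ND and from 4267 to 4594 in CDAHFD, without overlap, and fell by 0.13 (SE 0.04, adjusted p = 0.0135). Its call was lost without ND replicate 2 (log2 fold change -0.11) or without CDAHFD replicate 2 (-0.10). It was also lost in limma without trend and robust estimation (adjusted p = 0.0958). Over all alternatives the adjusted p ran from 0.0014 to 0.0958. Pkm, pyruvate kinase of the M type, whose isoforms share 1 gene and were not separated here, ranged from 12531 to 13649 in ND and from 11789 to 12129 in CDAHFD, again without overlap, and fell by 0.14 (SE 0.04, adjusted p = 0.00417). For Eno1 and Pkm the call was lost in limma without trend and robust estimation (adjusted p = 0.0682 and 0.0788, the highest over the alternatives of each, whose lowest were 0.00149 and 4.65e-04). Pgam1, phosphoglycerate mutase, ranged from 1636 to 1654 and from 1746 to 1835, which did not overlap, but its log2 fold change of 0.11 (SE 0.05, adjusted p = 0.0591) was not called. It passed without CDAHFD replicate 1 and with trimmed mean scaling, both at 0.12, and the adjusted p over all alternatives ran from 0.034 to 0.227.

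Gapdh, often used as a reference gene, stood far below its neighbours in the pathway. It had 283 to 319 normalised counts in ND and 304 to 349 in CDAHFD, or 73.7 and 77.96 per kilobase of exon. Pgk1, which catalyses the next step, had 2149 and 1969.8 per kilobase, and Eno1 had 2391 and 2604. For Gapdh, 198 annotated pseudogenes matched its transcripts at 90% identity or more over at least 200 bases, up to an identity of 100%. Of these, 94 were in the table, and their counts summed to 496 to 557 in ND and 529 to 570.1 in CDAHFD, above those of Gapdh itself. How reads that match several places were treated is not given in the sources used here, so the level of Gapdh is uncertain, and its log2 fold change of 0.08 (SE 0.09, adjusted p = 0.507) is no check of the scaling. Ldha had 21 such copies, Pkm 9, Eno1 7, Aldoa 5, Pgk1 and Bnip3 4 each, Pgam1 3, Tpi1 2, and Gpi1, Ldhb and Bnip3l 1 each. For Ldha the 6 copies in the table summed to no more than 80.3 in any library, a small part of its counts.

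The 38 genes differed widely in level. Per kilobase of exon in ND, Ddit4 led at 3829.7 normalised counts, followed by Ldha at 3581, Pkm at 2648, Aldoa at 2410.4, Eno1 at 2391 and Pgk1 at 2149. In CDAHFD, Ddit4 led at 4535, followed by Aldoa at 3169.5, Ldha at 3116, Eno1 at 2604, Pkm at 2398 and Pgk1 at 1969.8. This order depends on dividing by the merged exon length, which was 1755 bases for Ddit4 and 5001 for Pkm. In counts not divided by length, Ddit4 did not lead. In ND it averaged 6721, below Pkm at 13244, Eno1 at 12859 and Ldha at 11854, among others.

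Among the lactate genes, Ldha and Slc16a1 fell, Slc16a3 rose and Ldhb was not called. Ldha, the subunit that favours lactate production and a classic HIF target, had 11892, 12042 and 11628 normalised counts in ND and 10552, 10208 and 10177 in CDAHFD. Every CDAHFD library lay below every ND library, and Ldha fell by 0.20 (SE 0.04, adjusted p = 5.98e-05). Ldhb, the subunit that favours the return of lactate to pyruvate, had 199 to 222 in ND and 198 to 225 in CDAHFD, with a log2 fold change of 0.00 (SE 0.11, adjusted p = 1.00). Ldhb was 3.58% ± 0.181 of the pair per kilobase in ND and 4.09% ± 0.194 in CDAHFD.

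Slc16a3 (ENSMUSG00000025161, chr11:120948480-120960868), the lactate exporter MCT4 and a HIF target, rose more than any other of the 38 genes. It had 123, 165 and 134 normalised counts in ND and 296, 323 and 369 in CDAHFD, 141 ± 21.96 against 329 ± 36.8 (SD, n = 3). The lowest CDAHFD library was well above the highest ND library, and Slc16a3 was 2.34-fold higher, a log2 fold change of 1.23 (SE 0.12, adjusted p = 1.10e-09). Slc16a1 (ENSMUSG00000032902, chr3:104638668-104658462), the transporter MCT1 that moves lactate in either direction, had 1772, 1933 and 1959 in ND and 1607, 1625 and 1539 in CDAHFD. Those ranges did not overlap either, and Slc16a1 fell by 0.25 (SE 0.05, adjusted p = 1.73e-04). Slc16a3 made up 5.46%, 6.65% and 5.38% of the pair per kilobase in ND and 13.3%, 14.2% and 16.6% in CDAHFD. Slc16a1 held the rest, 94.2% ± 0.708 and 85.3% ± 1.72, and led in all 6 libraries. The log2 ratio of Slc16a1 to Slc16a3 fell by 1.47 (SE 0.15). Slc16a3 is also expressed in macrophages and neutrophils, whose marker sums moved the same way, and their part in its rise was not tested.

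**Figure D2:**
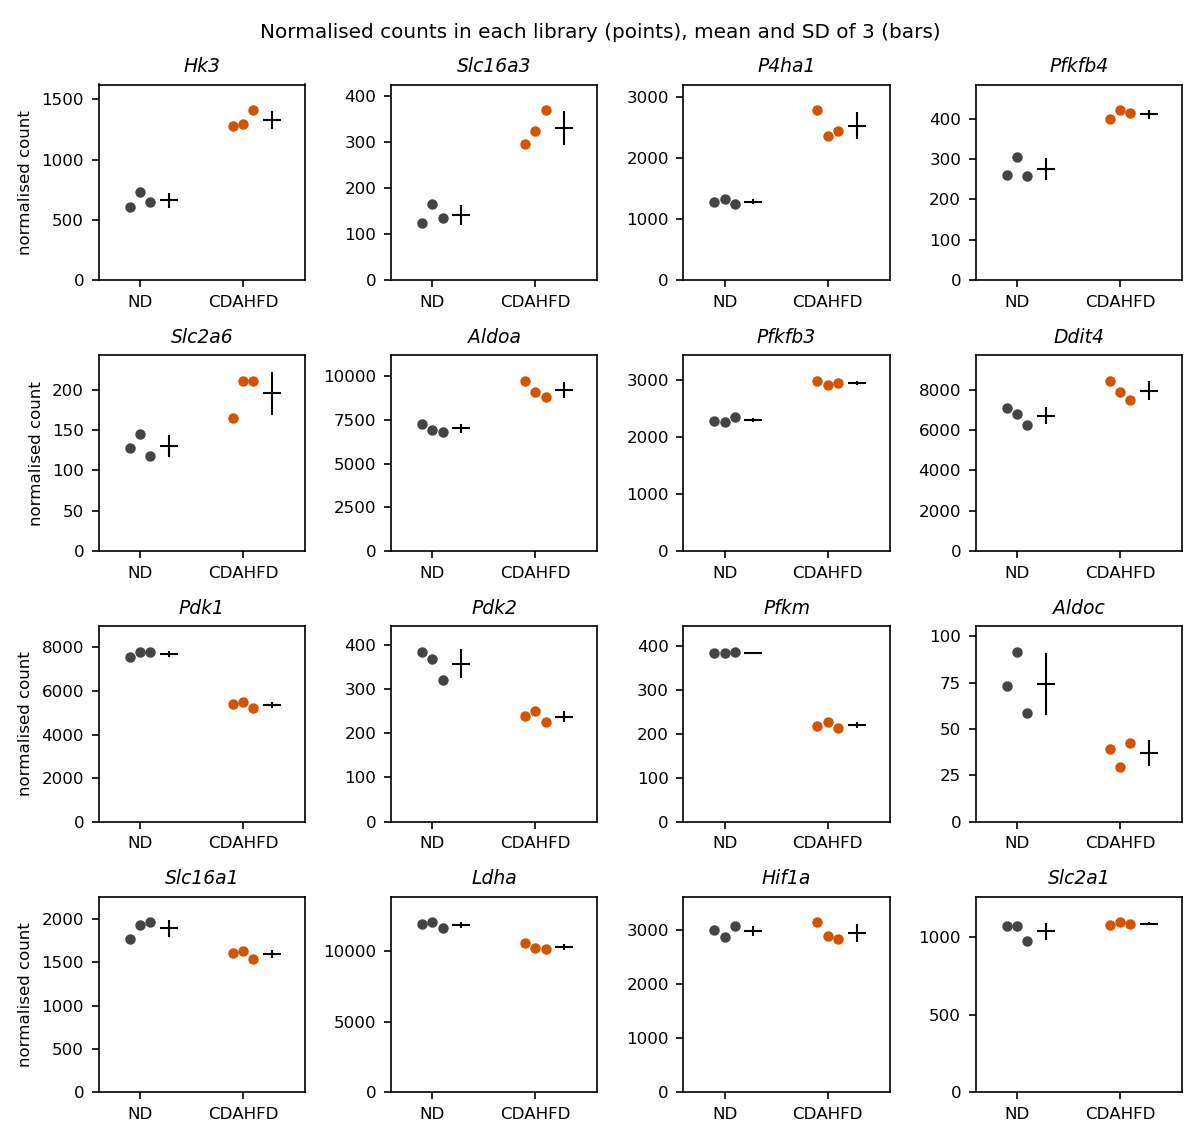
Normalised counts of 16 of the genes in each library (points), with the mean and SD of the 3 libraries per diet (bars), each axis starting at 0. Hk3, Slc16a3 and P4ha1 in CDAHFD lie far above ND, Pdk1, Pdk2, Pfkm and Aldoc lie below, and Hif1a overlaps, with means of 2976 in ND and 2947 in CDAHFD.

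Pyruvate dehydrogenase kinases keep pyruvate out of mitochondria, and 2 of the 3 in this set fell. Pdk4 was listed with the other isoforms and is not in the shares below. Pdk1 (ENSMUSG00000006494, chr2:71873224-71903858), a classic HIF target, had 7564, 7786 and 7814 normalised counts in ND and 5398, 5494 and 5215 in CDAHFD, 7721 ± 137 against 5369 ± 142 (SD, n = 3). The diets were far apart relative to their spread, and Pdk1 fell by 0.52 (SE 0.04, adjusted p = 4.09e-12). Pdk2 (ENSMUSG00000038967, chr11:95026258-95041354), the broadly expressed form, had 385, 367 and 321 in ND and 238, 250.02 and 225 in CDAHFD. Its libraries did not overlap, and it fell by 0.59 (SE 0.10, adjusted p = 1.08e-05). Pdk3, the form with the highest activity, had 665, 703 and 689 in ND and 684, 678 and 699 in CDAHFD, with a log2 fold change of 0.00 (SE 0.06, adjusted p = 0.976). While Pdk3 counts overlapped, its share per kilobase went from 19.2%, 19.7% and 19.6% in ND to 25.8%, 25.2% and 26.9% in CDAHFD. Pdk1 went from 72.3% ± 0.682 to 66.8% ± 0.604 and led in all 6 libraries, and the shares of Pdk2 overlapped, at 8.23% ± 0.812 and 7.26% ± 0.264. In the same libraries the CD8 T cell marker list, mostly genes shared with other T cells, summed to 0.800 of its ND level. Its part in the fall of Pdk1 (from 7721 to 5369) was not tested.

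The oxygen-sensing genes showed small differences. Hif1a, the widely expressed alpha subunit, had 2989, 2872 and 3067 normalised counts in ND and 3140.1, 2878 and 2824 in CDAHFD. The libraries overlapped and the log2 fold change was -0.02 (SE 0.05, adjusted p = 0.821). This is a measure of its message, whereas its activity is set largely at the level of the protein. Epas1, which encodes HIF-2 alpha, had 73.5 to 95.9 in ND and 99.7 to 129 in CDAHFD, without overlap, but its log2 fold change of 0.37 (SE 0.16, adjusted p = 0.0573) was not called. It passed without ND replicate 1 (0.46) or without CDAHFD replicate 1 (0.42), and the adjusted p over all alternatives ran from 0.0414 to 0.274. Per kilobase, Epas1 was 2.92% ± 0.327 of the pair in ND and 3.81% ± 0.618 in CDAHFD.

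Vhl, which marks hydroxylated HIF for degradation, ranged from 901 to 975 in ND and from 795 to 883 in CDAHFD, without overlap, but its log2 fold change of -0.15 (SE 0.06, adjusted p = 0.0516) was not called. It passed without CDAHFD replicate 3 (-0.18), with scaling to equal totals (-0.17) and with a filter at a mean of 50 (-0.15), and the adjusted p over all alternatives ran from 0.0279 to 0.209. Egln1, the main HIF prolyl hydroxylase, had 1742, 1758 and 1776 normalised counts in ND and 1884, 1951 and 1895 in CDAHFD. Its libraries did not overlap and its log2 fold change was 0.12 (SE 0.05, adjusted p = 0.035). That call was lost in 10 of 16 alternatives, among them the removal of any library other than CDAHFD replicate 1, with log2 fold changes of 0.10 to 0.13 and an adjusted p of 0.019 to 0.131 over all alternatives. Egln3, a hydroxylase that HIF itself induces, had 105, 86.7 and 99.9 in ND and 108, 89.02 and 88.1 in CDAHFD, which overlapped, with a log2 fold change of -0.04 (SE 0.15, adjusted p = 0.872). Egln1 made up 93.1% ± 0.657 of the pair per kilobase in ND and 93.7% ± 0.764 in CDAHFD.

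Of the 4 hypoxia targets, P4ha1 and Ddit4 rose and Bnip3 and Bnip3l were not called. P4ha1 (ENSMUSG00000019916, chr10:59323296-59373304), the catalytic subunit of collagen prolyl hydroxylase, had 1282, 1334 and 1248 normalised counts in ND and 2790.2, 2359 and 2452 in CDAHFD. The diets were widely separated, 1288 ± 42.97 against 2534 ± 227 (SD, n = 3), and P4ha1 was 1.97-fold higher, a log2 fold change of 0.97 (SE 0.06, adjusted p = 2.55e-14). Ddit4, an inhibitor of mTORC1 also induced by glucocorticoids and amino acid stress, had 6269 to 7087 in ND and 7529 to 8460.4 in CDAHFD, without overlap, and rose by 0.24 (SE 0.05, adjusted p = 1.31e-04). Bnip3, a mitophagy receptor and one of the most HIF-dependent genes in many cells, had 80.3, 107 and 86.7 in ND and 124, 96.6 and 91.96 in CDAHFD. These overlapped, and the log2 fold change was 0.18 (SE 0.16, adjusted p = 0.376). Bnip3l, its paralogue, also needed to clear mitochondria from maturing red cells, had 3531, 3532 and 3568 in ND and 3934, 3500.3 and 3638 in CDAHFD, with a log2 fold change of 0.06 (SE 0.04, adjusted p = 0.31). Bnip3l made up 95.8% ± 0.625 of the pair per kilobase in ND and 95.4% ± 0.482 in CDAHFD, and was not called. The erythroid marker sum was 9.75-fold higher in the same libraries, and its part in the level of Bnip3l was not tested. Stromal and endothelial markers, which cover cells that make collagen, summed to 4921 to 5063 in ND and 7674 to 7977 in CDAHFD (2 of 6 tested higher, 1 lower). Their median log2 fold change was -0.45, so the sum and the median differ in sign, and their part in the rise of P4ha1 was not tested.

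Across the 12 families of paralogues no family changed its leading member: the same gene held the largest share per kilobase in all 6 libraries. Which gene led could depend on the division by length. Slc2a1 led its family per kilobase, but in undivided counts Slc2a3 (1823 to 1991) exceeded Slc2a1 (973 to 1096) in all 6 libraries. Of 29 shares, 21 did not overlap between diets, in 10 of the 12 families. In the 7 families of 2 genes the shares mirror each other, and counting each such family once leaves 16 of 22 without overlap. Among all genes tested, the levels of 54.3% did not overlap. That counts levels of single genes and not shares within a family, so it is no matched background for the shares. With 3 libraries against 3 the smallest exact permutation p is 0.1, and the smallest after Benjamini-Hochberg adjustment over the 29 shares was 0.138, so none of these shifts could pass the threshold by this test. With the length correction, the largest shifts were in the hexokinases, where Hk3 gained 14.1 percentage points. The pair of Slc16a1 and Slc16a3, which leaves out Slc16a7, followed, where Slc16a3 gained 8.87. Then came phosphofructokinase, where the share of Pfkm fell by 6.70. Among 22 pairs of paralogues, 15 had log2 ratios that did not overlap between diets. Pairs within a larger family share genes, so these are not separate results. No such count was made over other pairs of genes, so this one has no background beside it. Members of a family differ in length, and the size of a shift depends on the length correction. With counts not divided by length the order changed: Slc16a3 gained 10.2 points, Hk3 gained 9.24 and Pdk3 gained 3.10, while Pfkp gained 2.67 and the share of Pfkm fell by 2.44.

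**Figure D3:**
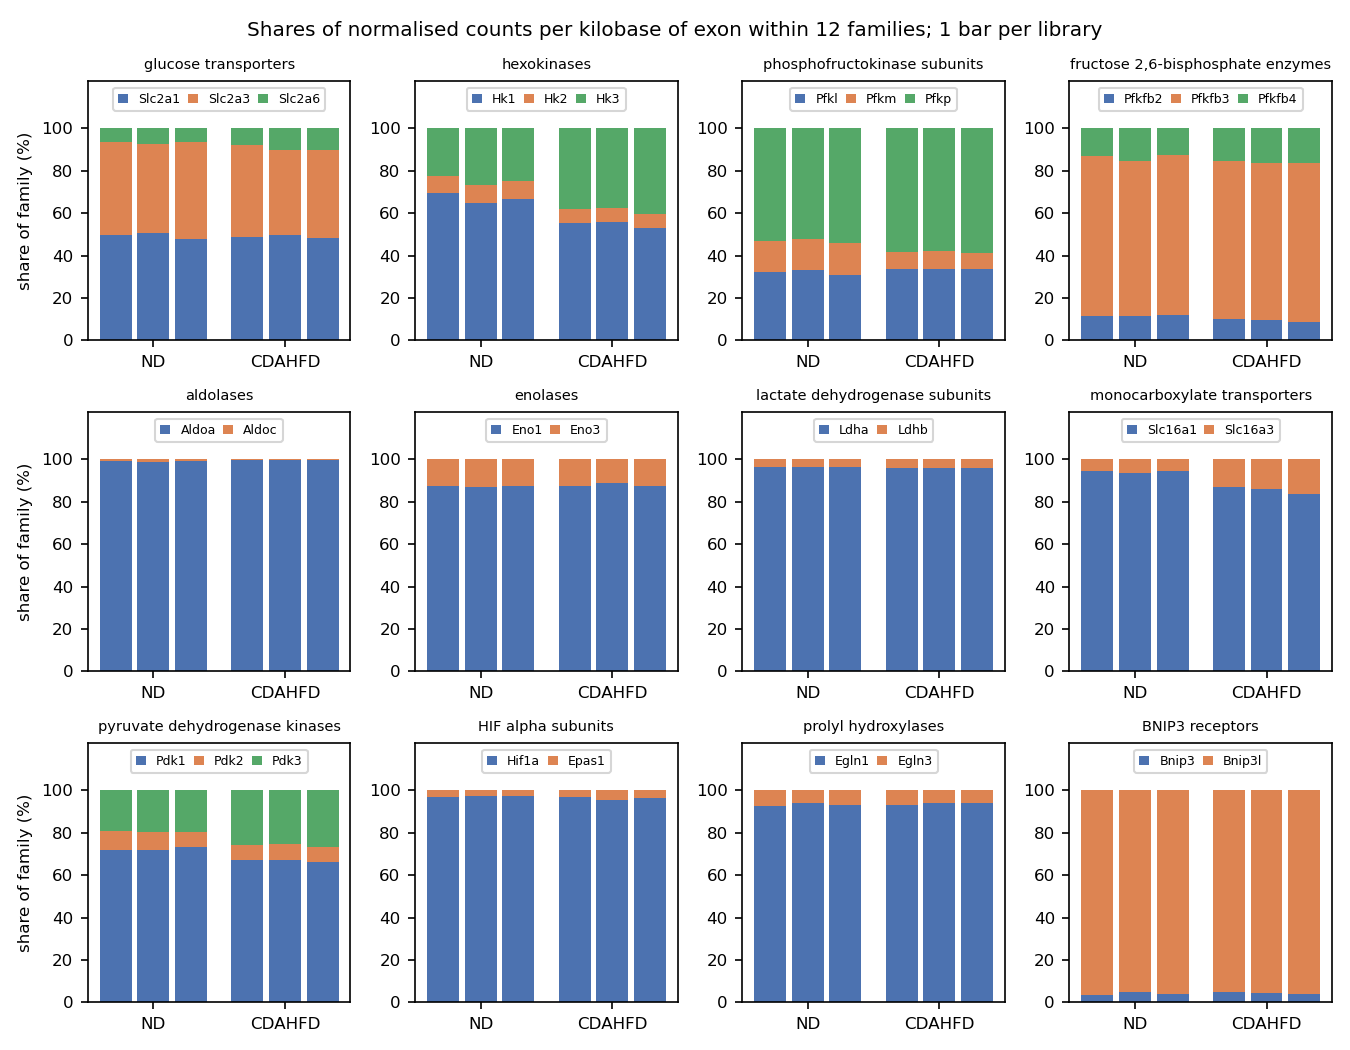
Share of each paralogue in its family's normalised counts per kilobase of exon, in percent, with 1 stacked bar per library and 3 libraries per diet, for 12 families. The hexokinase, lactate transporter and phosphofructokinase panels differ most between diets, as in Hk3 at 24.7% ± 2.18 in ND and 38.8% ± 1.49 in CDAHFD, while the leading member is the same in every bar of a family.

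Genes around the pathway were counted in lists set by pathway, to be read beside the 24.6% of all genes tested that were higher and the 22.5% that were lower. Among 15 tested other isoforms of glycolysis and lactate transport, 8 were higher and 2 lower, with a median log2 fold change of 0.20. Slc16a7, the high-affinity transporter MCT2, rose from 98.3 ± 9.75 to 472 ± 46.1 normalised counts, a log2 fold change of 2.25 (SE 0.11, adjusted p = 4.52e-16). It thus joined Slc16a3 in rising while Slc16a1 fell. Pklr, the liver and red cell pyruvate kinase, rose from 27.2 ± 6.07 to 56.2 ± 6.03 (a log2 change of 1.04 with SE 0.24 and adjusted p = 5.89e-04). Erythroid markers, given above, moved the same way, and their part in the rise of Pklr was not tested. Ldhd, a D-lactate dehydrogenase of mitochondria, rose from 33.6 ± 9.33 to 69.1 ± 14.9 (a log2 change of 1.03 with SE 0.23 and adjusted p = 5.16e-04). A further 13 genes of that list were below the filter.

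Branches off the pathway gave mixed counts. Of 11 tested pentose phosphate genes, 2 were higher and 2 lower. G6pdx, which commits glucose 6-phosphate to that branch, rose by 0.47 (SE 0.05, adjusted p = 4.51e-09), Taldo1 rose by 0.24 (SE 0.04, adjusted p = 3.20e-05), and Pgls fell by 0.25 (SE 0.06, adjusted p = 8.46e-04). Of 12 genes of glycogen and glucose 1-phosphate, 5 were higher and 2 lower. Pygl, the liver-type glycogen phosphorylase, rose from 260.2 ± 53.6 to 1245 ± 80.2 (a log2 change of 2.27 with SE 0.12 and adjusted p = 7.26e-09) while Pygm, the muscle type, fell from 178 ± 12.8 to 105 ± 26.3 (a log2 change of -0.78 with SE 0.15 and adjusted p = 1.13e-04). Gaa, the lysosomal enzyme that degrades glycogen, rose from 1217 ± 28.7 to 2101 ± 124 (a log2 change of 0.79 with SE 0.05 and adjusted p = 2.47e-13). Among 11 genes of pyruvate entry into mitochondria, 1 was higher and 3 were lower. Pdha1, the subunit of pyruvate dehydrogenase that the Pdk enzymes phosphorylate, fell by 0.29 (SE 0.05, adjusted p = 1.12e-05), and Pdhx, which anchors the complex, fell by 0.34 (SE 0.09, adjusted p = 0.00193). Pcx, pyruvate carboxylase, rose by 0.63 (SE 0.17, adjusted p = 0.00337). The kinase Pdk1 and its substrate Pdha1 were therefore both lower. Of 2 tested gluconeogenic genes, Pck2, the mitochondrial phosphoenolpyruvate carboxykinase, rose by 0.88 (SE 0.08, adjusted p = 8.00e-11).

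HIF subunits and targets beyond the 38 genes also went both ways. Of 10 HIF subunits and sensors, 4 were higher and 1 lower, with a median of -0.01. The lower gene was Rbx1, a ubiquitin ligase subunit that works with Vhl, which fell by 0.14 (SE 0.06, adjusted p = 0.046) and is named because it is the single one. Arnt2, a partner of the alpha subunits, had 0, 1.02 and 7.54 normalised counts in ND and 40.2, 29.4 and 39.7 in CDAHFD. It passed the filter only through the CDAHFD libraries, so its call carries no weight, and without it 3 of 9 were higher. Cited2, which competes with HIF for its coactivator, rose by 0.39 (SE 0.05, adjusted p = 3.27e-07), and Egln2, another prolyl hydroxylase, by 0.14 (SE 0.05, adjusted p = 0.0255). Of 17 further HIF targets tested, 5 were higher and 5 lower, with a median of 0.02. Without Vegfa and Adm, which passed the filter through 1 diet only, 4 of 15 were higher and 4 lower. Plod1, a collagen lysyl hydroxylase, rose from 311 ± 31.1 to 1029.5 ± 12.7 (a log2 change of 1.73 with SE 0.08 and adjusted p = 1.99e-17). Rora, a nuclear receptor, rose from 336 ± 56.4 to 835 ± 41.7 (a log2 change of 1.32 with SE 0.10 and adjusted p = 7.01e-10). Adm, the peptide adrenomedullin, had 18.02 ± 2.07 normalised counts in ND and 4.26 ± 2.35 in CDAHFD. Plod1 and P4ha1, which both modify collagen, thus rose in the same libraries in which Pdk1, Ldha and Aldoc fell.

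Regulators of glucose use gave 4 higher and 3 lower of 13 tested, with a median of 0.05. Mlxip, a glucose-responsive transcription factor, rose from 4465 ± 140.1 to 6982 ± 399 (a log2 change of 0.64 with SE 0.04 and adjusted p = 4.96e-13). Its partner Mlx fell by 0.21 (SE 0.06, adjusted p = 0.00649), and Arrdc4, a target of that pair, rose by 0.52 (SE 0.08, adjusted p = 7.52e-06). Of 9 tested genes of amino acid stress and glucocorticoid response, 6 were higher and 3 were not called, with a median of 0.65. These responses can induce Ddit4 without hypoxia, and their part in its rise was not tested. Fkbp5, a glucocorticoid target, rose from 1727 ± 10.7 to 3764 ± 104 (a log2 change of 1.12 with SE 0.04 and adjusted p = 1.21e-18), and Asns, asparagine synthetase, from 44.1 ± 5.68 to 177 ± 16.02 (a log2 change of 1.98 with SE 0.16 and adjusted p = 2.47e-11). Chac1, a stress-induced enzyme of glutathione breakdown, had 5.51 ± 4.32 in ND and 17.6 ± 7.57 in CDAHFD. It passed the filter only through CDAHFD, and without it 5 of 8 were higher. Those lists are described by their counts and medians, beside a median of -0.01 over all genes tested.

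**Figure D4:**
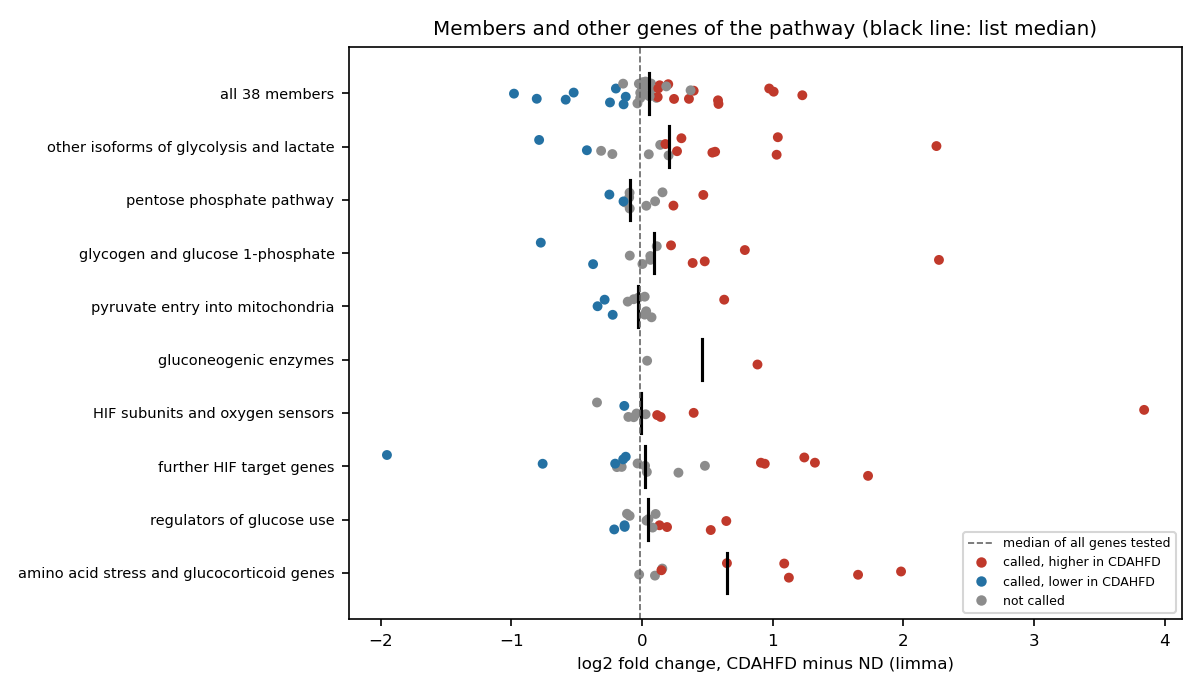
Log2 fold change, CDAHFD minus ND, of the tested genes of each list (points; red and blue passed an adjusted p of 0.05), with the median of each list (black line) and of all genes tested (dashed line, -0.01). The 38 genes have a median of 0.05 and points on both sides of 0, and the amino acid stress and glucocorticoid genes have a median of 0.65.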

How the data were processed

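CD8+ T cells from spleen were profiled in 3 ND and 3 CDAHFD libraries, prepared with a whole-RNA or an mRNA kit, per the labels, which do not say which. The deposited values are normalised read counts per gene (unit: signal), made by the authors on mm10, per the submitters' processing notes. The aligner, counter, annotation, strand setting and treatment of multiply mapped reads are not given in the sources used here. Dividing by the value of 1 read gave whole numbers within 0.001 for 100% of values, so reads could be recovered (25314988 to 28067393 per library). Column names spell the diet CDHFD, and were matched to CDAHFD. Symbols were matched for 26147 of 26181 identifiers, and positions and exon lengths were taken from the GENCODE M21 annotation.

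Normalised counts were tested as log2(value + 1) in limma 3.58.1 (R 4.3.3) with trend and robust estimation and Benjamini-Hochberg adjustment, for the 15819 genes that averaged 10 or more. Fold changes in log2 are on that scale and understate those of low genes. Folds without log2 are ratios of means, except for the thresholds of 1.5-fold and 2-fold, which were applied to the limma values. On the recovered reads, edgeR 4.0.16 called 7536 genes and DESeq2 1.42.0 called 6755, against 7449. The limma procedure was run on simulated counts with the same dispersion for all genes and far fewer changed genes than were called here. That run does not cover the differences in marker sums between these diets. Paralogue shares use counts per kilobase of merged exons. Near-identical pseudogenes were found with blastn 2.17.0. Promoters are RefSeq's. Aldoa stands for ENSMUSG00000030695, since another identifier of that symbol held almost no reads and was not used. The genes and lists were chosen with earlier results of these data known. Values in every library are given for genes called with an absolute log2 fold change of at least 0.5, and for paralogues over 5% of their family in any library, and up to 3 called genes are named from each other list. Alternatives covered the pseudocount, filter, scaling, test, replicate block and each library left out.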

Additional observations from a re-analysis of the deposited data

How the results depend on the processing

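Over the 16 alternatives the number of genes called ranged from 6105 to 7819, and from 6573 to 7537 with a library left out. Of the 38 genes, 9 to 14 were called higher (10 to 14 with a library left out) and 6 to 9 lower (7 to 9). In these alternatives all 20 called genes kept their direction, and 15 kept their call throughout. Egln1, Pfkl, Pgk1, Eno1 and Pkm lost it in at least 1 of them. Vhl, Pgam1 and Epas1 gained a call in some. With 3 libraries a diet, differences within their spread were not detectable, and low counts widen the error, as for Aldoc.

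Genes with log2 fold changes near 0, all not called, changed sign. Scaling to equal totals gave -0.0036 for Slc2a3, -0.020 for Ldhb and -0.017 for Pdk3, trimmed mean scaling gave 0.0084 for Tpi1, and edgeR gave -7.4e-04 for Ldhb. With a library left out, log2 fold changes ran from -0.012 to 0.049 for Slc2a3, -0.037 to 0.012 for Gpi1, -0.045 to 0.026 for Tpi1, -0.024 to 0.12 for Pfkfb2, -0.013 to 0.083 for Eno3, -0.055 to 0.045 for Ldhb, -0.019 to 0.021 for Pdk3, -0.062 to 0.015 for Hif1a and -0.13 to 0.022 for Egln3. The share of Pfkl differed by -0.221 points without length correction, against 1.54 with it. Shares without overlap numbered 20 without length correction and 21 to 25 with a library left out.

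Labels give both diets the replicate numbers 1 to 3. Deviations of same-numbered libraries correlated at 0.04, -0.05 and 0.06, so no shared deviation was seen. With 3 libraries a diet this cannot exclude that they were paired. With the replicate number as a block, 7250 genes were called, 11 of the 38 higher and 8 lower, and Egln1 lost its call (adjusted p = 0.0645).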
